A study of Mus musculus with 2 samples.

Results

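The nuclear-encoded subunits of oxidative phosphorylation were examined in spatial gene expression sections of healing mouse femurs. Members were all genes whose symbols begin with *Nduf*, *Sdha* to *Sdhd*, *Uqcr*, *Cox4i*, *Cox5*, *Cox6*, *Cox7*, *Cox8* or *Atp5* and which had at least 10 UMIs (unique molecular identifiers, each marking 1 captured molecule) over both sections. The rule took 80 of the 19465 genes in the files, and every matching symbol reached the limit. By symbol, 35 were placed in complex I, 4 in complex II, 7 in complex III, 15 in complex IV and 13 in ATP synthase, and 6 were assembly factors of complex I. This placing by symbol alone puts *Ndufa4l2* under complex I and *Cox7a2l* under complex IV. *Cox4i1*, *Cox5a*, *Cox6b1*, *Ndufa4*, *Atp5g2*, *Atp5if1* and the subunits encoded by mitochondrial DNA were not analysed here.

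Both groups were female bone cell reporter (BCR) mice that received a mid-diaphyseal osteotomy of the femur at 12 weeks of age, held by an external fixator. Mice with a bridged defect at week 3 after surgery were assigned to Control (sham-loading without force) or Loaded (cyclic mechanical loading), with 3 sessions per week until week 5, and were killed at 17 weeks of age. The sections of formalin-fixed, decalcified femur were measured with the Visium assay for FFPE tissue, in which probe pairs report each gene on a grid of spots that each cover several cells. There was 1 section per condition, so spots are not replicates, no test between conditions was possible and no interval below covers variation between mice.

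Oxidative phosphorylation is the final stage of respiration in the inner mitochondrial membrane. Complex I (NADH dehydrogenase) and complex II (succinate dehydrogenase, shared with the tricarboxylic acid cycle) pass electrons to ubiquinone, complex III passes them to cytochrome c, and complex IV (cytochrome c oxidase) reduces oxygen. ATP synthase uses the resulting proton gradient. Skeletal muscle is rich in mitochondria, more so in slow than in fast glycolytic fibers, and striated muscle uses its own isoforms of some complex IV subunits, *Cox6a2*, *Cox7a1* and *Cox8b*, beside the widely expressed *Cox6a1*, *Cox7a2* and *Cox8a*.

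These isoform pairs turn out to differ between regions, and the 250 bases before the start site are therefore shown for the members of the pairs that RefSeq promoter windows cover (build GRCm38.p6, the build also called mm10). The windows lie at chr7:30183921-30184170 (plus strand) for *Cox7a1*, chr7:140900447-140900696 (minus strand) for *Cox8b*, chr5:115348959-115349208 (minus strand) for *Cox6a1*, chr9:79759854-79760103 (minus strand) for *Cox7a2* and chr19:7217617-7217866 (minus strand) for *Cox8a*. Each is written 5′ to 3′ toward the gene, and capitals mark matches to the motifs named after the sequences. No window was matched for *Cox6a2*.
Cox7a1: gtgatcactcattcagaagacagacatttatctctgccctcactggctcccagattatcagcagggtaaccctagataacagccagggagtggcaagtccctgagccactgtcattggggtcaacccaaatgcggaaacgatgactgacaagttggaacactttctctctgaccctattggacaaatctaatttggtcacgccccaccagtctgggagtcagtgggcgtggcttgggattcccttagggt
Cox8b: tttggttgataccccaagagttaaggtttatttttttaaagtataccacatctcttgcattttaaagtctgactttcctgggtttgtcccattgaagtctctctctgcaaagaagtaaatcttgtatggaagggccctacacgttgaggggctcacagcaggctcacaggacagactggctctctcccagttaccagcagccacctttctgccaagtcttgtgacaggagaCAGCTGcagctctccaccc
Cox6a1: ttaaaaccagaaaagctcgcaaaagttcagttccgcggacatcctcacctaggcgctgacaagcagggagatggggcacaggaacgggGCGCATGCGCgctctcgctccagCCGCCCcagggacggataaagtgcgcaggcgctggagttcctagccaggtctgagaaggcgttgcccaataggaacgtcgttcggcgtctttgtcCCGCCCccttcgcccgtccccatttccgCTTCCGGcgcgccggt
Cox7a2: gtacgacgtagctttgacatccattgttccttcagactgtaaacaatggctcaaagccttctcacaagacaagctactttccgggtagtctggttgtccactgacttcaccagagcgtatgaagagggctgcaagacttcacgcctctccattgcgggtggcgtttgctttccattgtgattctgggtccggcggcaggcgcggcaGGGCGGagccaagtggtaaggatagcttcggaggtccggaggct
Cox8a: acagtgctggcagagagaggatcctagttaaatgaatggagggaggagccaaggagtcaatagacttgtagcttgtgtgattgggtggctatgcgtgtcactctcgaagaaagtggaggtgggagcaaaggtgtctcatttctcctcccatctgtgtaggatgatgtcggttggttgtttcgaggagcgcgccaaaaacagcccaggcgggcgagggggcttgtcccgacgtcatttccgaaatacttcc

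The letters searched on both strands were GCGCATGC for NRF1, CCGGAAG for ETS factors, AAGATGGC for YY1, GGGCGG for Sp1, TATAAA for a TATA box, CAGCTG for an E-box and AAGGTCA for an ERR half-site. The 250 bases of *Cox6a1* held a pair of overlapping NRF1 matches that begin 162 and 160 bases before the start, Sp1 matches at 139 and 44 and an ETS match at 16. *Cox7a2* held 1 Sp1 match 44 bases before the start and *Cox8b* 1 E-box match at 19. *Cox7a1* and *Cox8a* held none in these 250 bases. Over the full windows, which extend 50 bases past the start, 63 of the 80 members were matched with 68 windows. For the pairs shown, the full windows added an ETS match for *Cox8a* and a TATA box match for *Cox8b*. The NRF1 letters were in 14.7% of the members' windows and in 2.71% of all 32851 windows, the ETS letters in 23.5% and 8.86%, the YY1 letters in 10.3% and 2.75%, and the ERR half-site in 11.8% and 4.72%. Sp1 letters were in 42.6% and 35.7%, respectively. The E-box letters were in 8.82% of the members' windows and 16.3% of all windows, and the TATA box letters in 10.3% and 13.6%. A match is a description of these letters only and no binding was measured.

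Spots were grouped into bone (the barcodes that the study lists as bone at the fracture site), muscle (outside bone, with a list of 22 skeletal muscle genes at 10% or more of the UMIs) and marrow (outside bone and muscle, with a raised share of 10 granulocyte genes). None of these lists holds a member. The muscle list leaves out the slow fiber genes, so spots rich in slow fibers can fall short of the 10% limit. Bone, muscle and marrow held 131, 994 and 200 spots in Control and 146, 618 and 337 in Loaded, with median depths of 3478, 5046 and 1810.5 UMIs per spot in Control and 2621, 3580.5 and 2410 in Loaded. Muscle genes accounted for 33.0% of the UMIs of Control muscle and 24.5% of Loaded muscle, and granulocyte genes for 0.763% and 1.21% of marrow. The bone spots were not free of muscle signal. The muscle list made up 14.9% of UMIs in Control bone (5.42% to 26.0% over 4 blocks of neighboring spots) and 7.76% in Loaded bone (4.43% to 12.1%), and osteoblast genes made up 2.10% and 6.78%. All 4 osteocyte genes were detected in both bone regions, at 0.00933% of UMIs in Control and 0.0797% in Loaded. Slow fiber genes accounted for 0.196% of Control muscle and 1.09% of Loaded muscle. Because a spot holds several cells, more cells of a type and more RNA per cell cannot be told apart in any value below.

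For the levels below, the UMIs of a gene or group in a region were added up and then scaled by the total of the scran size factors of those spots ("normalized UMIs per spot"), and the range in parentheses is over the 4 blocks. Log2 ratios between regions carry an exact conditional binomial 95% interval, which covers counting error only. Probe pairs differ in efficiency, so levels were compared between regions and not between genes. A gene counts as higher or lower in a comparison where its log2 ratio was at least 0.5 in size, with 10 or more UMIs over both regions.

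The 80 members together were highest in muscle in both sections. Their summed level was 189 (95.1 to 237) in Control muscle, 77.4 (40.9 to 132) in Control bone and 51.1 (45.4 to 56.5) in Control marrow. In the Loaded section it was 160 (122 to 210) in muscle, 63.0 (56.0 to 70.2) in bone and 64.4 (53.2 to 82.5) in marrow. The blocks of muscle lay above the blocks of marrow in both sections, whereas blocks of Control bone reached from below the marrow blocks to within the range of muscle. As shares of all UMIs, members accounted for 3.57% of Control muscle, 2.41% of bone and 1.40% of marrow, and for 3.95%, 1.99% and 1.86% of the same regions in Loaded. The share over each whole section differed little, at 3.14% in Control and 3.12% in Loaded.

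**Figure D1:**
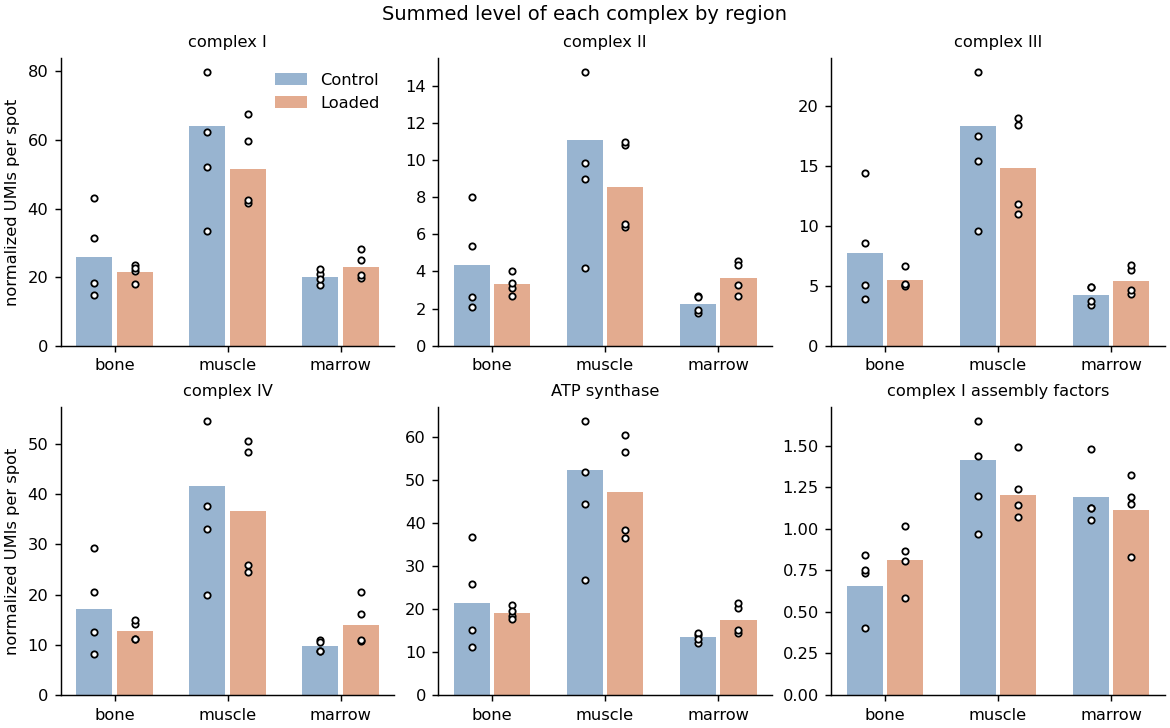
Summed level of each complex (normalized UMIs per spot, linear axis from 0, scaled per panel) in bone, muscle and marrow of the Control and Loaded sections; bars are the whole region and the 4 points are blocks of neighboring spots, not replicates. Muscle bars are the tallest for every complex, for example 64.0 against 20.2 in marrow for complex I in Control, while the summed assembly factors, most of whose marrow UMIs are from *Ndufaf8*, are at 1.41 and 1.19.

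Muscle exceeded marrow for nearly all members. In Control, 67 of the 78 members with enough UMIs were higher in muscle and 5 lower, where 29.8% of all genes were higher and 43.8% lower. In Loaded, 62 of 77 were higher and 4 lower, with 30.5% and 39.4% of all genes. The median log2 ratio of the members was 1.99 in Control and 1.29 in Loaded, beside -0.27 and -0.13 over all genes tested. All 4 muscle blocks lay above all 4 marrow blocks for 48 members in Control and 53 in Loaded (14.2% and 14% of all genes), and below them for 4 in each (17.5% and 22.5%). Of the Control members, 71 of 78 had a log2 ratio above 0 (42.7% of all genes). Other size factors shift every gene of a comparison alike. With TMM factors the median of all genes was 0.62 in Control, and 73 members were higher and 1 lower. With library totals it was -0.80, and 61 were higher and 7 lower. Of 77 members with enough UMIs in both sections, 62 were higher in muscle in both, 4 lower in both and 11 neither. The matching share over all genes was not computed.

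The difference ran through each complex. Complex II, which also serves the tricarboxylic acid cycle, was 2.28 higher on the log2 scale in Control muscle than in marrow (95% interval 2.10 to 2.47), complex III 2.10 (1.97 to 2.24), complex IV 2.09 (1.996 to 2.18), ATP synthase 1.96 (1.88 to 2.04) and complex I 1.67 (1.603 to 1.73). In Loaded, the log2 ratios were 1.24 for complex II, 1.47 for complex III, 1.39 for complex IV, 1.44 for ATP synthase and 1.17 for complex I. All members of complexes II and III were higher in both sections. In complex I, 31 of 35 were higher and 0 lower in Control, and 29 of 34 and 0 in Loaded. The 6 assembly factors, which build complex I and are not part of the finished enzyme, had a summed log2 ratio of 0.25 (-0.017 to 0.52) in Control and 0.11 (-0.090 to 0.31) in Loaded. *Ndufaf8* held 92 of their 124 UMIs in Control marrow and 167 of 270 in Loaded marrow. Counted by gene, 4 of the 6 were higher and 1 lower in Control, with a median of 1.41, and 3 were higher and 0 lower in Loaded, with a median of 0.81.

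Among the catalytic members, *Sdhb*, the iron-sulfur subunit of complex II, had 5.51 normalized UMIs per spot in Control muscle (1.97 to 7.75), 1.82 in bone and 0.972 in marrow (0.790 to 1.09), and 3.95, 1.23 and 1.49 in Loaded. *Atp5b*, the catalytic beta subunit of ATP synthase, had 6.68 in Control muscle (2.84 to 8.49) and 1.12 in marrow (0.700 to 1.44), a log2 ratio of 2.58 (2.32 to 2.86). In Loaded its level was 6.66 in muscle and 2.05 in marrow, with a log2 ratio of 1.70 (1.57 to 1.84). The muscle blocks of both genes lay above the marrow blocks in both sections. *Ndufb10*, an accessory subunit of complex I, had 5.36 in Control muscle and 1.00 in marrow, and 4.63 and 1.17 in Loaded. *Uqcrc1*, a core subunit of complex III, had 4.35 and 1.04 in Control and 4.23 and 1.39 in Loaded. The highest log2 ratios among members with at least 50 UMIs belonged in Control to *Ndufaf6*, an assembly factor with 1 UMI in marrow, *Ndufs6* (3.52, 2.39 to 4.97) and *Ndufv2* (3.30, 2.55 to 4.18), both of complex I.

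**Figure D2:**
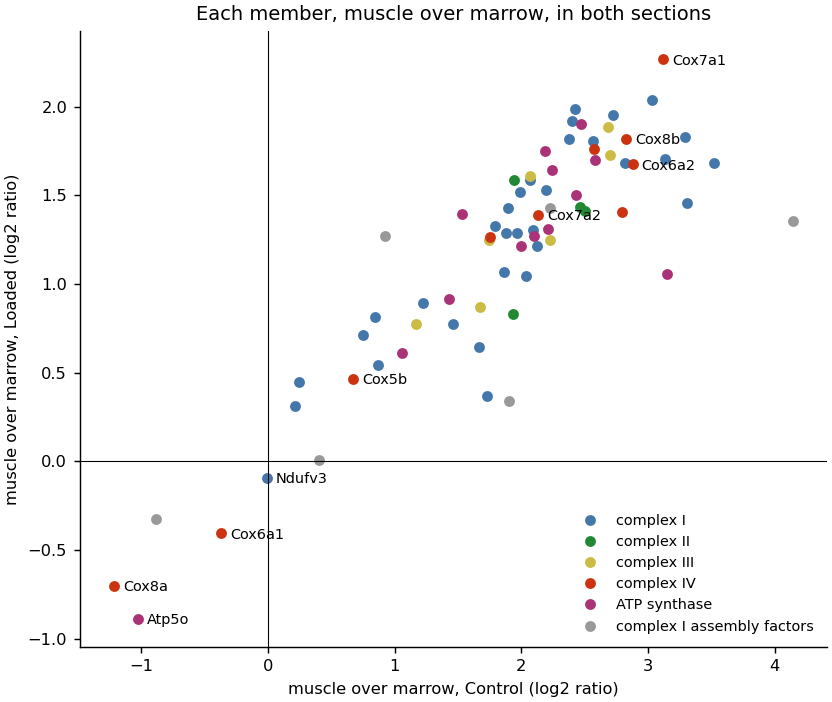
Log2 ratio of muscle over marrow for each of 72 members with at least 50 UMIs in both sections, in Control (x axis) and Loaded (y axis), colored by complex. Of these, 61 lie at 0.5 or more on both axes, and *Atp5o* and *Cox8a* lie at -0.5 or less on both. The share of all genes in these positions was not computed.

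The muscle isoforms of complex IV were among the members with the largest contrast. *Cox7a1* had 4.77 normalized UMIs per spot in Control muscle (1.72 to 6.73), 1.73 in bone (0.445 to 3.40) and 0.548 in marrow (0.333 to 0.911). In Loaded it had 5.41 in muscle (3.18 to 7.99), 1.23 in bone (1.02 to 1.46) and 1.12 in marrow (0.745 to 1.80). *Cox7a1* was higher in muscle than in marrow by 3.12 (2.74 to 3.52) in Control and 2.27 (2.09 to 2.45) in Loaded on the log2 scale, the latter the highest of all members with 50 UMIs in that section, and all muscle blocks lay above the marrow blocks. *Cox6a2*, at chromosome 7 (128205435 to 128206387, minus strand), had 19.9 in Control muscle (9.47 to 26.4), 7.52 in bone (2.86 to 13.9) and 2.70 in marrow (1.40 to 3.63). In Loaded, *Cox6a2* had 15.5 in muscle (9.45 to 24.4), 4.13 in bone (3.34 to 5.30) and 4.86 in marrow (2.88 to 7.97). *Cox8b* had 6.55, 2.82 and 0.924 in Control muscle, bone and marrow, and 6.68, 1.81 and 1.89 in Loaded, with log2 ratios of muscle over marrow of 2.83 (2.54 to 3.13) and 1.82 (1.68 to 1.96). The 3 isoforms made up 16.5% of member UMIs in Control muscle and 8.17% in Control marrow, against 17.3% and 12.2% in Loaded.

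Their widely expressed partners did not share one pattern. *Cox8a*, whose promoter is shown above beside that of *Cox8b*, had 0.472 normalized UMIs per spot in Control muscle (0.390 to 0.570) and 1.10 in marrow (0.911 to 1.37), and 0.457 (0.364 to 0.505) and 0.743 (0.636 to 0.927) in Loaded. Its muscle blocks lay below its marrow blocks in both sections, with log2 ratios of -1.22 (-1.51 to -0.92) and -0.70 (-0.97 to -0.43). With TMM factors the ratios of *Cox8a* were smaller in size, at -0.33 (-0.62 to -0.026) in Control and -0.19 (-0.46 to 0.087) in Loaded. *Cox6a1* had 0.417 in Control muscle and 0.539 in marrow, and 0.442 and 0.586 in Loaded, with log2 ratios of -0.37 (-0.77 to 0.05) and -0.41 (-0.70 to -0.11) and overlapping blocks. With TMM factors both ratios of *Cox6a1* were above 0, at 0.52 (0.12 to 0.94) and 0.11 (-0.19 to 0.41). *Cox7a2* went with its muscle partner, at 0.843 in Control muscle and 0.192 in marrow (log2 ratio 2.13, 1.497 to 2.85) and at 0.672 and 0.256 in Loaded (1.39, 1.01 to 1.80).

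The ratio of UMIs within a pair cancels any error in the size factors and was therefore compared between regions. *Cox6a2* over *Cox6a1* was 47.6 in Control muscle (95% interval 43.8 to 52.0), 11.2 in bone (9.23 to 13.6) and 5.02 in marrow (3.76 to 6.81). In Loaded the same ratio was 35.1 (31.3 to 39.6), 5.08 (4.11 to 6.32) and 8.30 (6.96 to 9.94). *Cox8b* over *Cox8a* was 13.9 in Control muscle and 0.842 in marrow (0.635 to 1.11), and 14.6 and 2.55 (2.14 to 3.05) in Loaded. *Cox7a1* over *Cox7a2* varied least, from 5.66 in Control muscle to 2.85 in marrow, and from 8.05 to 4.39 in Loaded. In the bone spots with a muscle share below 5% (20 in Control, 33 in Loaded), *Cox6a2* over *Cox6a1* was 2.47 (1.62 to 3.85) in Control and 2.84 (1.99 to 4.12) in Loaded, intervals that overlap. Transcripts of the muscle list were present in these spots too, at 3.18% and 3.74% of UMIs. Slow fiber genes, which that list leaves out, were at 0.373% and 0.410%, beside 0.196% in Control muscle. The part of muscle transcripts in the remaining *Cox6a2* was not tested.

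**Figure D3:**
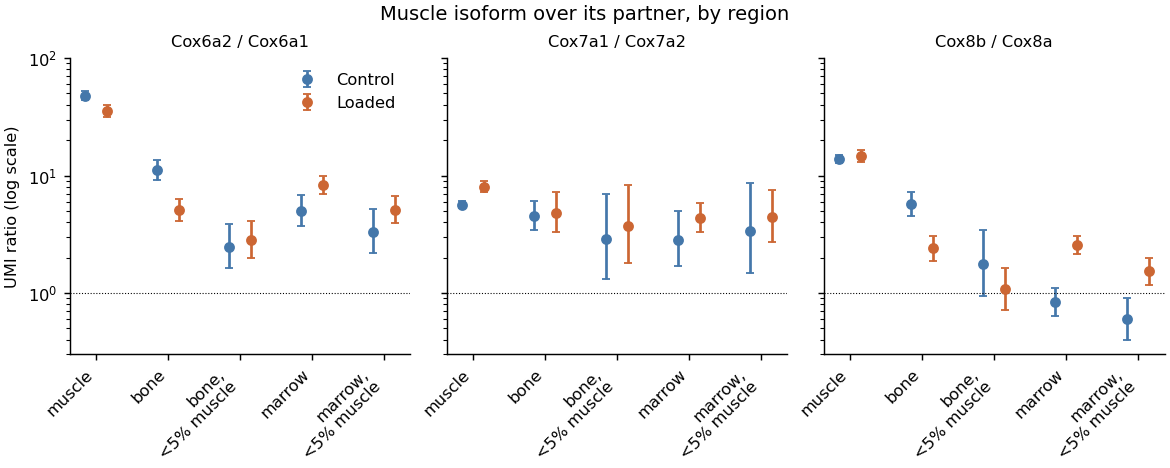
UMI ratio of each muscle isoform over its widely expressed partner (log axis) in muscle, bone, bone spots under 5% muscle share, marrow and marrow spots under 5% muscle share; points are Control and Loaded, bars exact 95% counting intervals. *Cox6a2* over *Cox6a1* runs from 47.6 in Control muscle to 2.47 in Control bone spots under 5% muscle share. *Cox8b* over *Cox8a* runs from 14.6 in Loaded muscle to 0.606 in Control marrow spots under 5% muscle share.

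A few further members went against the module with scran factors. With TMM factors, where the median of all genes was 0.62 in Control and 0.38 in Loaded, 1 and 2 members were lower in muscle. *Atp5o*, the OSCP subunit that joins the catalytic head of ATP synthase to its stalk, had 0.643 normalized UMIs per spot in Control muscle (0.577 to 0.720) and 1.31 in marrow (1.01 to 1.79), and 0.667 (0.541 to 0.762) and 1.23 (1.00 to 1.65) in Loaded. The log2 ratios of *Atp5o* were -1.02 (-1.29 to -0.75) and -0.89 (-1.10 to -0.67), and the blocks did not overlap. It was the only 1 of 13 ATP synthase members lower in muscle. *Cox6b2*, known as the testis isoform of its subunit, had few UMIs, 28 over all of Control muscle against 18 in marrow, and log2 ratios of -3.004 (-3.91 to -2.06) and -2.91 (-3.84 to -2.06). *Cox7c* had log2 ratios of -1.06 (-2.22 to 0.34) and -1.37 (-2.38 to -0.36), from 42 UMIs in Control muscle and 7 in marrow. *Ndufaf8*, an assembly factor, was lower in Control (-0.88, -1.20 to -0.55) and had -0.32 (-0.59 to -0.05) in Loaded, and the Control value changes sign with TMM factors in place of scran. *Ndufv3*, an accessory subunit of complex I, was near equal, at 2.32 in Control muscle and 2.34 in marrow (log2 ratio -0.0086, -0.20 to 0.19) and at 2.12 and 2.26 in Loaded (-0.092, -0.24 to 0.053).

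Without the 3 muscle isoforms, complex IV was higher in muscle than in marrow by 0.89 (0.77 to 1.02) in Control and 0.56 (0.48 to 0.64) in Loaded on the log2 scale. Both values were below those of complexes I, II and III and ATP synthase. This remainder keeps the partners *Cox6a1* and *Cox8a*. Of 1021 complex IV UMIs in Control marrow, the isoforms held 434, *Cox5b* 283, *Cox8a* 114 and *Cox6a1* 56. The value for the remainder therefore rests largely on *Cox5b* and these partners, and the sum of the other members was not computed. The remaining complex IV members ranged from *Cox6b2* to *Cox7b* and *Cox6c*, at 1.55 and 1.93 normalized UMIs per spot in Control muscle against 0.260 and 0.279 in marrow. *Cox5b*, a subunit without a muscle isoform, had 4.34 in Control muscle and 2.72 in marrow, and 4.27 and 3.10 in Loaded. *Cox4i2*, the isoform known from lung, had 51 UMIs in Control muscle and 2 in marrow, and 27 and 9 in Loaded. Its log2 ratios were 1.03 (-0.90 to 4.12) and 0.13 (-0.998 to 1.41), with intervals that include 0.

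Other mitochondrial pathways were set beside the members. The tricarboxylic acid cycle was higher in muscle than in marrow for 12 of 13 genes in each section, with summed log2 ratios of 2.20 (2.08 to 2.33) in Control and 1.504 (1.43 to 1.58) in Loaded. Fatty acid oxidation was higher for 13 of 14 genes in Control and 12 of 14 in Loaded (1.596 and 1.12). Glycolysis split, with 9 of 14 genes higher and 5 lower in Control and 8 and 6 in Loaded. The list for ATP export and uncoupling did too, with 5 of 7 higher and 2 lower in each section. There, *Slc25a4*, the muscle and heart isoform of the ADP/ATP carrier, was higher in muscle by 2.80 (2.67 to 2.93) in Control and 1.86 (1.79 to 1.93) in Loaded. Its paralog *Slc25a5* was lower, at -1.18 (-1.65 to -0.67) and -1.05 (-1.44 to -0.65). Cytochrome c, cytochrome c1 and ubiquinone synthesis genes were higher for 8 of 12 and 8 of 11, and cytochrome c oxidase assembly factors for 8 of 13 in each section. The 11 regulators of mitochondrial biogenesis had a summed log2 ratio of -0.29 (-0.45 to -0.13) in Control and -0.045 (-0.17 to 0.083) in Loaded. By gene, 4 were higher and 3 lower in Control, with a median of 0.29, and 3 were higher and 2 lower in Loaded, with a median of 0.30.

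Bone lay between muscle and marrow in Control and near marrow in Loaded. Of the members, 70 of 78 were higher and 3 lower in muscle than in bone in Control (28.6% and 32.8% of all genes), and 65 of 77 and 5 in Loaded (24.4% and 35.7%). All muscle blocks lay above all bone blocks for 7 members in Control and 54 in Loaded (7% and 9.87% of all genes), and below them for 0 and 2 (3.55% and 12.1%). Against marrow, 46 of 75 members were higher and 8 lower in Control bone (32% and 36.4% of all genes), with a summed log2 ratio of 0.60 (0.55 to 0.64). In Loaded, 7 of 76 were higher and 7 lower (25.6% and 30.3% of all genes), with -0.033 (-0.072 to 0.0055). Library totals gave 16 higher and 6 lower in Loaded, where the median of all genes was 0.10 and their shares were not computed. All bone blocks lay above all marrow blocks for 13 members in Control and 1 in Loaded (5.82% and 6.14% of all genes), and below them for 4 and 2 (13.9% and 9.7%). Among members lower in bone than in marrow in both sections were *Atp5o* (-1.66, -2.09 to -1.23, in Control and -0.64, -0.98 to -0.31, in Loaded) and *Ndufv3* (-0.92 and -0.80). *Ndufa13*, a complex I subunit also known as GRIM-19, was higher in bone in both (1.28, 0.88 to 1.70, and 0.52, 0.21 to 0.83), with blocks that did not overlap. In bone spots with a muscle share below 5%, the summed ratio to marrow was -0.52 in Control and -0.31 in Loaded, so the direction of the Control value depends on the muscle share of the spots taken.

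Loaded bone had a lower summed level than Control bone, 63.0 against 77.4, a log2 ratio of -0.30 (-0.34 to -0.26). The direction rested on 1 of the 4 Control blocks, the block with the highest muscle share (26.0%), without which the ratio was 0.11 (0.069 to 0.16). Of 76 members, 9 were higher and 28 lower, with 30.5% of all genes higher and 20.8% lower, and the median was -0.34 beside 0.12 over all genes. A ratio above 0 was found for 21 members and for 56.4% of all genes. With TMM factors, where the median of all genes was -0.052, 6 members were higher and 41 lower. The shares of all genes were not computed with these factors. Complex III had the lowest summed ratio at -0.49 (-0.62 to -0.36), then complex IV at -0.42 (-0.51 to -0.34), complex II at -0.39 (-0.56 to -0.22), complex I at -0.28 (-0.35 to -0.21) and ATP synthase at -0.17 (-0.24 to -0.091). The Control blocks spanned the Loaded ones for every complex. With the 3 muscle isoforms left out, complex IV had 0.15 (0.0060 to 0.29), and its median member 0.28. The isoforms themselves were lower in Loaded bone, with log2 ratios of -0.86 (-1.01 to -0.72) for *Cox6a2*, -0.65 (-0.88 to -0.42) for *Cox8b* and -0.49 (-0.78 to -0.21) for *Cox7a1*. Their partners did not share one direction. *Cox6a1* and *Cox8a* had 0.27 (-0.12 to 0.66) and 0.60 (0.17 to 1.04), whereas *Cox7a2* had -0.57 (-1.22 to 0.051).

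Of all members, *Atp5o* alone had all Loaded bone blocks above all Control blocks, with 0.790 (0.768 to 0.810) against 0.415 (0.296 to 0.578) and a log2 ratio of 0.93 (0.48 to 1.39). *Atp5f1*, subunit b of the ATP synthase stalk, alone had all blocks below, with 10 UMIs against 44 and a log2 ratio of -1.71 (-2.87 to -0.70). Of all genes, 6.43% had all 4 blocks above and 2.34% below. *Sdhc*, a membrane anchor of complex II, was lower at 0.442 (0.324 to 0.647) against 1.18 (0.445 to 2.001), with -1.42 (-1.87 to -0.99), whereas *Sdha*, the flavoprotein of the same complex, was higher at 1.20 (0.837 to 1.40) against 0.830 (0.469 to 1.33), with 0.53 (0.20 to 0.87). The blocks of both overlapped.

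**Figure D4:**
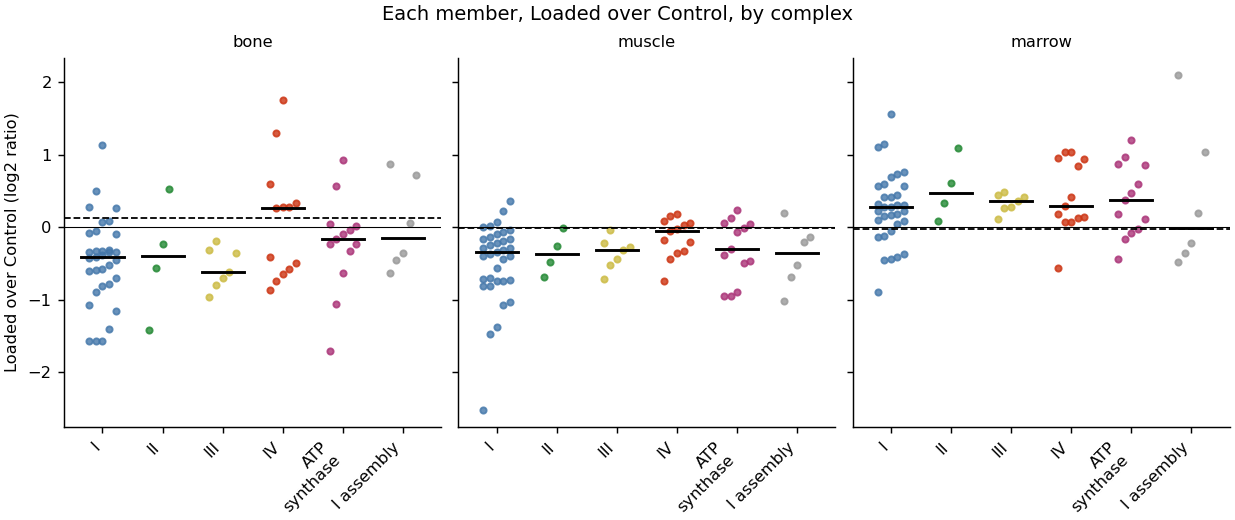
Log2 ratio of Loaded over Control for each member with at least 10 UMIs over both sections in bone, muscle and marrow, by complex; black bars are medians, the dashed line is the median of all genes tested and the solid line marks 0. Most members lie below the dashed line in bone (median -0.34 against 0.12) and muscle (-0.29 against -0.01), and above it in marrow (0.28 against -0.03).

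The bone difference changed sign with the muscle share of the spots. Among bone spots, the share of UMIs from members and from muscle genes had a Spearman correlation of 0.813 over 131 Control spots and 0.306 over 146 Loaded spots, as a description of spots that share a section and a total. With the share of osteoblast genes the correlations were larger in size, at -0.850 in Control and -0.454 in Loaded. Spots with a muscle share below 5% had members at 1.28% of UMIs in Control (1.21 to 1.35) and 1.72% in Loaded (1.65 to 1.79), a log2 ratio of normalized levels of 0.54 (0.44 to 0.64). At 5 to 10% muscle the shares were 2.02% and 2.08% (log2 ratio 0.26), and at 10 to 20% they were 2.30% and 2.15% (-0.15). Above 20%, Control had 34 spots at 3.37% and Loaded 1 spot at 2.76%. The spot numbers below 20% were 20, 41 and 36 in Control and 33, 63 and 49 in Loaded.

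In the bone spots under 5% muscle, 29 of 60 members were higher in Loaded and 6 lower, with 34% and 25.6% of all genes and medians of 0.40 for members and 0.16 for all genes. Each complex had a positive sum: ATP synthase 0.73 (0.55 to 0.91), complexes II and III 0.58 each, complex IV 0.54 (0.32 to 0.77) and complex I 0.38 (0.22 to 0.55). *Atp5k*, subunit e of ATP synthase, had 1.18 (0.853 to 1.73) in Loaded against 0.405 (0.177 to 0.666) in Control, and *Atp5o* 0.906 (0.853 to 1.07) against 0.270 (0.148 to 0.468), and in both the blocks did not overlap. Both were picked from the 3 highest ratios, and the 4 blocks divide only 20 Control and 33 Loaded spots. Of all genes, 4.63% had all 4 blocks above and 3.33% below. Glycolysis and tricarboxylic acid cycle genes were also higher by sum, at 0.58 (0.42 to 0.74) and 0.60 (0.28 to 0.92). The same spots differed in their other cells: osteoblast genes were at 5.14% in Control and 10.4% in Loaded, granulocyte genes at 0.0688% and 0.423%, erythroid genes at 1.70% and 2.21% and osteoclast genes at 1.10% and 0.755%. Slow fiber genes, which the muscle list leaves out, were at 0.373% in Control and 0.410% in Loaded. The osteocyte genes *Mepe* and *Phex* were at 0 in the Control spots. The part of these cells in the result was not tested.

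**Figure D5:**
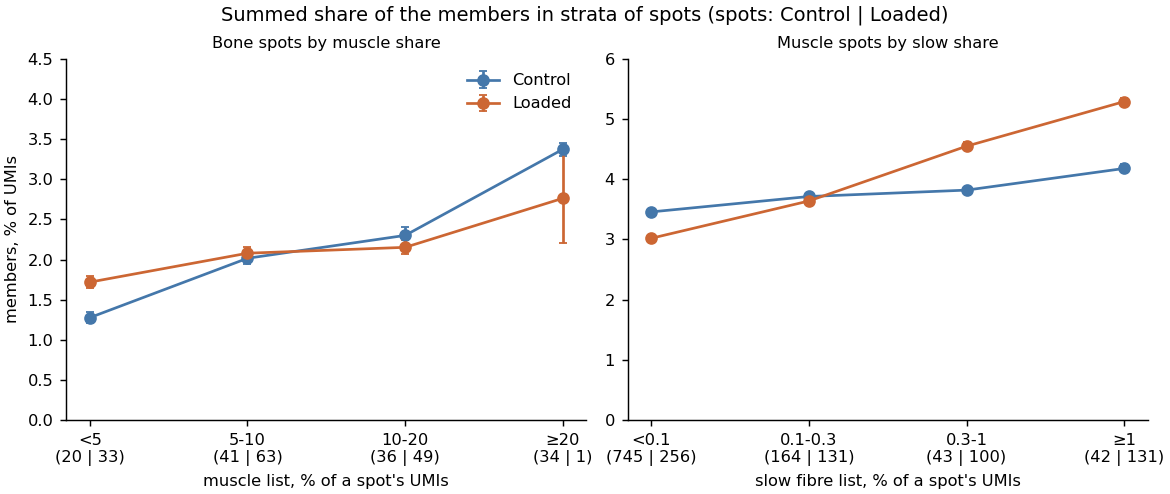
Share of UMIs from the 80 members (y axis, percent, with exact binomial 95% intervals) in bone spots grouped by muscle gene share and in muscle spots grouped by slow fiber gene share (x axis, percent of a spot's UMIs), with the numbers of Control and Loaded spots under each group. In bone, Loaded lies above Control under 5% muscle (1.72% and 1.28%) and below it at 10 to 20% (2.15% and 2.30%), and in muscle Loaded runs from 3.02% to 5.29% and Control from 3.46% to 4.18%.

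In muscle, the members were lower in Loaded by sum, 160 against 189, a log2 ratio of -0.24 (-0.25 to -0.23), which turns positive (0.15) when library totals replace the scran factors and without 1 of the 4 Control blocks (0.058, 0.046 to 0.070). Of 78 members, 0 were higher and 23 lower, where 18.7% of all genes were higher and 19.4% lower, but 7 were higher and 9 lower with library totals. With library totals the median of all genes was 0.38, and the shares of all genes were not computed. With scran factors the median of members was -0.29 beside -0.01 for all genes. A scaling by 1 factor per region cannot change this gap, so the gap is no check on the scaling. Equal weight for spots is not such a scaling, and with it the summed ratio was 0.027. The members with the lowest ratios among those with 50 UMIs were the complex I subunits *Ndufa6* (-1.47, -1.76 to -1.19), *Ndufa7* (-1.38, -1.74 to -1.04) and *Ndufs5* (-1.08, -1.51 to -0.67). The Loaded blocks lay below all Control blocks for *Ndufa7*, *Ndufs5*, *Atp5f1*, *Ndufb2* and *Ndufaf5*, 5 members, and above for none (4.05% and 1.78% of all genes). *Ndufa6* had 0.187 (0.0706 to 0.267) against 0.519 (0.185 to 0.703), with overlapping blocks. The highest ratios belonged to *Ndufa4l2* (0.36, -0.02 to 0.74), a paralog of *Ndufa4* known to be induced by low oxygen, and *Atp5a1*, the alpha subunit of ATP synthase (0.23, 0.19 to 0.28). The glycolytic genes were lower by sum, at -0.75 (-0.76 to -0.73), with 7 of 14 lower and 2 higher, and fatty acid oxidation had -0.026 (-0.068 to 0.016).

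The 2 muscle regions, each taken whole, differed in their shares of fiber type genes, with blocks that overlapped. Slow fiber genes were at 0.196% of UMIs in Control (0.00478% to 0.548% over blocks) and 1.09% in Loaded (0.0530% to 2.39%). Fast glycolytic fiber genes were at 19.5% (15.3% to 23.2%) and 12.7% (5.25% to 18.4%). Within muscle, members' share of UMIs was higher where the slow fiber share was higher, with Spearman correlations of 0.373 over 994 Control spots and 0.553 over 618 Loaded spots, which again share a section and a total. With the skeletal muscle list the correlations were 0.467 in Control and 0.021 in Loaded, and with osteoblast genes -0.724 and -0.578. At a slow share below 0.1% members were at 3.46% in Control and 3.02% in Loaded (log2 ratio of levels -0.57), and at 1% or more at 4.18% and 5.29% (0.19). The groups between had -0.26 and -0.060. As normalized levels the sections ran in opposite directions over the 4 groups from low to high slow share, with 192, 186, 184 and 170 UMIs per spot in Control and 129, 156, 177 and 194 in Loaded. The muscle spots therefore differed between the sections in the slow share, by which the direction of the difference also varied, and its part in the result was not tested.

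Muscle spots with the most and the least slow fiber signal (upper and lower 25% of spots by slow share) were then compared. In Loaded, members had 192 (158 to 224) normalized UMIs per spot in slow-rich and 128 (87.9 to 196) in slow-poor spots. The log2 ratio was 0.58 (0.56 to 0.61), and the blocks overlapped. The muscle list was at 16.6% of UMIs in slow-rich and 30.3% in slow-poor spots, and osteoblast genes at 0.431% and 0.698%. The part of these differences in the result was not tested. Of 75 members, 41 were higher in the slow-rich spots and 0 lower (18.4% and 23.2% of all genes). Complex IV had the largest ratio of the complexes, 0.92 (0.87 to 0.97), and complex I the smallest, 0.42 (0.38 to 0.46). The 3 muscle isoforms held 38.1 of the complex IV level of 48.5 in slow-rich spots and 18.0 of 25.6 in slow-poor spots. The lead of complex IV therefore rests on these isoforms. *Cox6a2* had 21.2 in slow-rich and 9.86 in slow-poor spots (1.10, 1.02 to 1.18), with blocks that did not overlap, *Cox7a1* 7.59 and 3.42 (1.15, 1.02 to 1.29) and *Cox8b* 9.31 and 4.74 (0.97, 0.86 to 1.09). Over all genes, 3.63% had all 4 blocks higher in slow-rich spots and 2.18% lower. *Cox8a* had 0.432 and 0.481 (-0.15, -0.58 to 0.28). All 14 fatty acid oxidation genes were higher in slow-rich spots, with 1.14 (1.04 to 1.24), and glycolysis was lower by sum at -1.08 (-1.11 to -1.05). The regulator *Ppargc1a*, a coactivator of mitochondrial genes, had 46 UMIs against 15 (1.28, 0.41 to 2.22).

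In Control, the slow-poor spots were the 435 with no UMI of the slow list, which were also shallower, at a median of 3016 against 4625 UMIs. There the members had 183 in slow-rich and 148 in slow-poor spots, a log2 ratio of 0.30 (0.29 to 0.32), with 26 of 78 higher and 2 lower (18.8% and 19.1% of all genes). By the 4 groups of slow share given above, the Control level went the other way, from 192 below 0.1% to 170 at 1% or more. The 435 slow-poor spots are part of that lowest group, which holds 745. The slow-rich and slow-poor spots also differed in other cells. Osteoblast genes were at 0.270% of UMIs in slow-rich and 0.694% in slow-poor spots, osteoclast genes at 0.0397% and 0.110%, adipocyte genes at 0.0268% and 0.121% and erythroid genes at 0.756% and 0.358%. Over the 994 Control muscle spots the members' share had a Spearman correlation of -0.724 with the osteoblast share. The part of these cells and of the depth was not tested. *Cox7a1* had 5.06 and 2.77 (0.87, 0.76 to 0.98), more than *Cox6a2* (0.30, 0.25 to 0.35) and *Cox8b* (0.27, 0.19 to 0.36). In Control 64 members had a ratio above 0 (49.8% of all genes), and no member's blocks were apart, where 1.61% of all genes had higher and 2.23% lower blocks. Of 75 members with enough UMIs in both sections, 16 were higher in slow-rich spots in both. This count was not made over all genes, so it has no share to be set beside.

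Marrow was the region in which members were higher in Loaded, at 64.4 (53.2 to 82.5) against 51.1 (45.4 to 56.5), a log2 ratio of 0.33 (0.29 to 0.38). Of 76 members, 23 were higher and 2 lower, with 21% and 23.5% of all genes, and the median was 0.28 beside -0.03 for all genes. All 4 Loaded blocks lay above the Control blocks for 7 members, and below for none (3.31% and 3.32% of all genes). Complex II had 0.67 (0.47 to 0.89), complex IV 0.51 (0.41 to 0.61), ATP synthase 0.38 (0.29 to 0.46), complex III 0.33 (0.18 to 0.49), complex I 0.19 (0.11 to 0.26) and the assembly factors -0.10 (-0.41 to 0.22). The 3 muscle isoforms held 7.88 of the complex IV level of 14.0 in Loaded marrow and 4.18 of 9.82 in Control. The place of complex IV in this order therefore rests on these isoforms.

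Among the 7 members, *Sdha* had 1.37 (1.00 to 1.61) in Loaded marrow against 0.645 (0.416 to 0.976) in Control, with 1.09 (0.71 to 1.49). *Atp5b* had 2.05 (1.45 to 2.80) against 1.12 (0.700 to 1.44), with 0.88 (0.58 to 1.18), and *Cox8b* had 1.89 (1.11 to 3.43) against 0.924 (0.739 to 1.05), with 1.04 (0.72 to 1.37). The others were *Atp5k*, *Atp5j*, *Cox6c* and *Ndufs4*. The highest ratios among members with 50 UMIs were those of *Ndufv2* (1.56, 0.74 to 2.48), *Atp5mpl* (1.20, 0.26 to 2.28) and *Ndufb5* (1.15, 0.57 to 1.78), from 14, 11 and 29 UMIs in Control marrow. *Cox8a* was lower, at -0.56 (-0.91 to -0.21). Fatty acid oxidation genes were higher for 9 of 14 and lower for 0, and glycolysis had 0.077 (0.010 to 0.14) by sum.

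Muscle signal was present in the marrow spots, at 4.98% of UMIs in Control and 5.16% in Loaded, and slow fiber genes were at 0.196% and 0.544%. The Spearman correlation of the members' share with the muscle share was 0.345 over 200 Control and 0.623 over 337 Loaded marrow spots. With the slow fiber share the correlation was 0.091 in Control and 0.637 in Loaded. Without the 3 muscle isoforms the log2 ratio was 0.27, and in the marrow spots under 5% muscle (115 in Control, 150 in Loaded) it was 0.15 (0.087 to 0.22), with 20 of 69 members higher and 4 lower (26.6% and 21.3% of all genes). Slow fiber genes were at 0.136% of UMIs in Control and 0.327% in Loaded in the marrow spots under 5% muscle. When marrow was instead taken as the 50 spots richest in granulocyte genes in each section, the ratio was -0.20. Erythroid genes made up 13.8% of Control and 10.8% of Loaded marrow UMIs, and the part of these cells in the result was not tested.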

How the data were processed

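Visium FFPE libraries of 1 Control and 1 Loaded femur section were analysed. The authors deposited raw UMI counts per gene and spot, without normalization, with spot positions. Per the submitters' notes and file headers they were made with Space Ranger 2.0.0 on mm10, with later work in R 4.3.1 and Seurat. The deposited section totals were 9002147 and 4910716 UMIs. Spots needed 500 UMIs and 250 genes, the limits that the authors also applied, which kept 1898 of 1962 Control and 1431 of 1436 Loaded spots. The sections share 557 spot barcodes, as slides of 1 grid do. Of the genes, 22 had a symbol that was not unique. Coordinates of genes came from GENCODE M21 and promoter windows from RefSeq, both GRCm38.

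Marrow spots needed at least 10 granulocyte UMIs and a granulocyte share at least 5 times the median of the section's muscle spots. Each region was cut into 4 blocks at its median array row and, on each side, its median array column. Size factors were computed with scran 1.30.0 (R 4.3.3) over all kept spots of both sections. The authors used scran factors and tested spots by likelihood ratio. With 1 section per condition no such test was run here. All 95% intervals are exact binomial ones and cover counting error only. A sum of 0 was set to 3 UMIs to give a bound. Python 3.11.15, numpy 2.4.6, scipy 1.17.1, pandas 2.3.3 and matplotlib 3.10.9 were used, and the computations were tested on simulated data.

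The members, lists and comparisons were chosen with earlier results of these data known. Named genes are the isoform genes, the 2 members with the most UMIs in each complex, and the 3 highest and 3 lowest members with at least 50 UMIs in each comparison. Genes named for blocks that did not overlap, and *Slc25a4*, *Slc25a5* and *Ppargc1a*, were added after the values were seen. Results were recomputed with TMM factors from edgeR 4.0.16, with library totals as they are or leaving out muscle genes and the 20 most abundant genes, with equal weight for spots, other limits on spots and UMIs, and each block left out.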

Additional observations from a re-analysis of the deposited data

Results flagged for a closer look

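The Loaded over Control difference of the summed members pointed to opposite sides in different regions, with log2 ratios of -0.30 in bone, -0.24 in muscle and 0.33 in marrow. The difference between these ratios was not tested, since each condition has 1 section.

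Within bone the ratio also differed with the muscle gene share of the spots, at 0.54 below 5%, 0.26 at 5 to 10% and -0.15 at 10 to 20%. Within muscle it differed with the slow fiber share, at -0.57 below 0.1%, -0.26 at 0.1 to 0.3%, -0.060 at 0.3 to 1% and 0.19 at 1% or more. Neither difference was tested.

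Spots that fell in none of the 3 regions, 573 in Control and 330 in Loaded, were used in no comparison. In them the members made up 1.57% of UMIs in Control and 2.39% in Loaded. Slow fiber genes, which the muscle list leaves out, were at 1.39% in the Loaded spots, beside 1.09% in Loaded muscle. In Control too their share was higher in these spots than in muscle. How many of these spots hold slow muscle was not tested.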

How the results depend on the processing

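The sum of all members for muscle over marrow stayed above 0 under each alternative tried. In Control the sum was 1.35 with library totals, 2.77 with TMM factors, 1.84 without the abundant genes, 1.59 with equal spot weight, 2.02 with muscle from 20% and 1.73 with the 50 spots richest in granulocyte genes as marrow, and 1.59 to 1.97 with a block left out. In Loaded these were 1.09, 1.82, 1.38, 1.21, 1.36 and 1.69, and 1.12 to 1.43. With TMM factors *Ndufaf8* in Control moved from -0.88 to 0.0051 and *Cox8a* from -1.22 to -0.33. With at least 50 UMIs, 3 members were lower in Control, and with a fold of 1 on the log2 scale, 2 were lower in Loaded.

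Loaded over Control was less stable, and the cause was not tested. In bone the sum was -0.47 with TMM factors, -0.39 without the abundant genes, -0.25 with equal weight, -0.40 with factors from bone spots alone, and -0.23 without the muscle isoforms. By muscle share it was 0.54 below 5%, 0.26 at 5 to 10% and -0.15 at 10 to 20%. It was -0.50 to 0.11 with a block left out, the 0.11 without the third Control block. Past a log2 of 1, 3 members were higher and 9 lower, and with 50 UMIs 4 were higher. In muscle it was 0.15 with library totals, -0.50 with TMM factors, -0.093 without the abundant genes, 0.027 with equal weight and -0.32 with muscle from 20%. By slow share it was -0.57, -0.26, -0.060 and 0.19. It was -0.43 to 0.058 with a block left out, the 0.058 without the third Control block. Library totals gave 7 members higher and 9 lower, a log2 of 1 gave 6 lower, and a minimum of 1 UMI gave 2 higher. In marrow it was 0.41 with library totals, 0.45 with TMM factors, 0.40 with equal weight, -0.20 with the 50 richest spots, 0.27 without the isoforms and 0.15 below 5% muscle, and 0.24 to 0.44 with a block left out. There 9 members were higher and 0 lower past a log2 of 1, and 1 (library totals and 50 UMIs) or 4 (1 UMI) were lower.

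Bone over marrow in Control was 0.79 with library totals, 0.89 with TMM factors, 0.85 without the abundant genes, 0.67 without limits on spots, 0.44 with the 50 richest spots and -0.52 below 5% muscle, and 0.19 to 0.80 with a block left out, with 26 members higher and 5 lower past 1. In Loaded it was 0.096 with library totals, 0.097 without the abundant genes, 0.35 with the 50 richest spots and -0.31 below 5% muscle, and -0.14 to 0.065 with a block left out, with 2 higher and 3 lower past 1, 16 higher with library totals and 2 higher with 50 UMIs. Slow-rich over slow-poor muscle was 0.39 with library totals and 0.37 with the wider groups of spots in Control, and 0.82 with library totals in Loaded. Apart from the values with a block left out, 59 sums and counts stayed within the 95% interval of the reported value or, for counts, within 1.5 times it. Of the other sums and counts, 58 moved past these limits and 10 sums changed sign. The shares of all genes were computed for the reported setting only, so counts of members under the alternatives have no share beside them. Among values of named genes, 531 stayed within the interval and 167 did not. A change of sign was counted apart only for log2 ratios of at least 0.5 in size, and 1 further value, that of *Ndufaf8*, changed sign. Smaller ratios also changed sign, such as *Cox6a1* for muscle over marrow in Control, from -0.37 to 0.52 with TMM factors.

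Scran factors, TMM factors and library totals each shift all genes of a comparison by 1 constant. By construction, the median of members minus that of all genes is then -0.47 in bone, -0.28 in muscle and 0.31 in marrow for Loaded over Control. Equal weight for spots is not such a shift, and the gap was not computed for it. The bone groups at 5 to 10% and 10 to 20% muscle, the groups by slow share, the sums without isoforms and the marrow spots below 5% muscle were chosen after seeing the data. No paired analysis was possible because the groups share only replicate number 1 and there is 1 section in each.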
